A study of Mus musculus with 49 samples.

Results

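The nuclear genes for the subunits of the mitochondrial respiratory chain and of the ATP synthase were followed in white fat of the mouse strains 129S1/SvImJ and C57BL/6. Members were chosen by symbol alone: the genes whose symbols begin with Nduf followed by a, b, c, s or v, the genes Sdha to Sdhd, and those beginning with Uqcr, with Cox and a digit of 4 to 8, or with Atp5, if they stand in all 5 deposited tables. Ndufs5, Cox7a1 and Cox8b match but are left out by the rule. It gave 87 members among 22869 gene symbols. Of these, 78 are structural subunits, with 35 in complex I, 4 in complex II, 8 in complex III, 16 in complex IV and 15 in complex V. The other 9 match by name only. They are the complex I assembly factors Ndufaf1, Ndufaf2, Ndufaf3 and Ndufaf4, the supercomplex factor Cox7a2l, the Ndufa4 relative Ndufa4l2, and Atp5s, Atp5sl and Cox4nb.

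RNA was sequenced from 2 fat depots, the visceral epididymal one (eWAT) and the subcutaneous inguinal one (iWAT), and 43 of the 49 labelled samples were used. In the drug experiment, mice of both strains ate the control low fat diet D12450B for 10 weeks from 6 to 16 weeks of age and then, until 18 weeks, either the same diet with 36 mg rosiglitazone per kg or the control diet for the final 2 weeks. Rosiglitazone, an antidiabetic drug, activates the nuclear receptor PPARG. That experiment gave 4 eWAT libraries of rosiglitazone-fed 129S1/SvImJ, 4 of rosiglitazone-fed C57BL/6, 4 of control-fed 129S1/SvImJ and 4 of control-fed C57BL/6. Chow-fed mice gave 5 eWAT libraries of 129S1/SvImJ and 5 of C57BL/6, with no age in the labels. Mice that had eaten the low fat diet for 12 weeks gave 4 iWAT libraries per strain, 4 eWAT libraries of 129S1/SvImJ and 5 eWAT libraries of C57BL/6. Libraries of 5 F1 mice and 1 nascent RNA sample were not analysed here. The library numbers of each group form a run of their own in every experiment, so effects of group and of library run cannot be told apart. Whether each replicate came from its own animal is not stated, so p-values measure only the spread between these samples, which may be technical.

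Electrons from NADH enter the respiratory chain at complex I (NADH dehydrogenase) and those from succinate at complex II (succinate dehydrogenase). They pass through ubiquinone, complex III (cytochrome bc1) and cytochrome c to complex IV (cytochrome c oxidase), which reduces oxygen. Complexes I, III and IV pump protons across the inner mitochondrial membrane, and complex V, the ATP synthase, uses the return flow to make ATP. White adipocytes hold few mitochondria compared with brown adipocytes, in which the uncoupling protein UCP1 lets protons return as heat. Most subunits are encoded in the nucleus. Those encoded in mitochondrial DNA were not analysed here.

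The deposited values are normalized whole numbers with a floor of 1, and the depth behind them is unknown. Library totals lay between 5537632 and 7526303. Values were most coarsely stepped in the 4 C57BL/6 iWAT libraries, which held 467 to 679 distinct values, against 1293 to 1865 in the other 39. Adipoq, which encodes the adipocyte hormone adiponectin, had a value between 11641 and 25245 in 42 libraries and 2402 in chow-fed 129S1/SvImJ library 2. In that library the summed value of 8 epididymis markers was 220100, and library 1 of the same group had a sum of 34020. C57BL/6 12-week eWAT library 3 had a sum of 13180 over 10 skeletal muscle markers. In iWAT, library 4 of each strain had high brown or beige adipocyte and lymphocyte markers, and 129S1/SvImJ library 1 had high lymphocyte and muscle markers. Counts that rest on these libraries are given with and without them. Raised sums stood in C57BL/6 libraries too. Muscle markers summed to 2020 in C57BL/6 iWAT library 1 and to 2774 in 129S1/SvImJ chow library 1. Skin and glandular epithelium markers summed to 1390 and 1524 in C57BL/6 chow libraries 2 and 5, and to 2076 and 4931 in 129S1/SvImJ chow libraries 1 and 2. Those C57BL/6 libraries are covered only by the ranges of fits without 1 library. In bulk tissue, fewer cells of a type and less RNA per cell cannot be told apart.

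Because most members were higher in 129S1/SvImJ on both diets of the drug experiment, the start regions of 6 of them are printed, each running from 250 bases before to 50 bases after the RefSeq start in GRCm38.p6, 5′ to 3′ on the strand of the gene. They cover the complex I subunit gene that was raised most in 129S1/SvImJ (Ndufa11), one that went the other way (Ndufa12), and subunit genes of complexes II to V. Capitals mark matches, on either strand, to letters bound by known regulators of respiratory genes: GCGCATGC (NRF1), CCGGAAG (ETS factors such as GABPA), AAGGTCA (oestrogen-related receptors), AAGATGGC (YY1) and CCAAT. NRF1 matches on opposite strands can overlap, as they do in Ndufa11, Cox6a1 and Atp5k.
Ndufa11, chr17:56717512-56717811, plus strand: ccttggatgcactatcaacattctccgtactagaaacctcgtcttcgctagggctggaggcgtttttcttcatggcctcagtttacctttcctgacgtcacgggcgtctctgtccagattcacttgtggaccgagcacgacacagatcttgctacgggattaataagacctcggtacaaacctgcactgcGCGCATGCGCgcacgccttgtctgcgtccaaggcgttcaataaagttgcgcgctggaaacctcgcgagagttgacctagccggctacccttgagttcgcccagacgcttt
Ndufa12, chr10:94198785-94199084, plus strand: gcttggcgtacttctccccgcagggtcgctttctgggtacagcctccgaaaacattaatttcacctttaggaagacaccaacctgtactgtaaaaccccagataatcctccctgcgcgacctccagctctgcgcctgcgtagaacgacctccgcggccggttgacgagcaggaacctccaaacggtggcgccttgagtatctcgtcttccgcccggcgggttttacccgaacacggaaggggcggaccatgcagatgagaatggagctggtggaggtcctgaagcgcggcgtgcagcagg
Sdhb, chr4:140961021-140961320, plus strand: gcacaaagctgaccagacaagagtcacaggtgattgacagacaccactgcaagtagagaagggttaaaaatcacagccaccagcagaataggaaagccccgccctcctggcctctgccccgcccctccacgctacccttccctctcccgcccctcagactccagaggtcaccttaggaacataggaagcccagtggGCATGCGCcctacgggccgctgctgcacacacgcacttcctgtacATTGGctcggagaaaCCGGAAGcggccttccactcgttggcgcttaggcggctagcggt
Uqcr11, chr10:80406772-80407071, minus strand: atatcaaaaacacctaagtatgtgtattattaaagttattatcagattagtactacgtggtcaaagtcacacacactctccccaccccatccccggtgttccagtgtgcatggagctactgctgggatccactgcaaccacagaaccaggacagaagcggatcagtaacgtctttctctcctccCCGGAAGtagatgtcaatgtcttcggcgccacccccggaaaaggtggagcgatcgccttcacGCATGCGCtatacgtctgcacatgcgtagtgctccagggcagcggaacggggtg
Cox6a1, chr5:115348909-115349208, minus strand: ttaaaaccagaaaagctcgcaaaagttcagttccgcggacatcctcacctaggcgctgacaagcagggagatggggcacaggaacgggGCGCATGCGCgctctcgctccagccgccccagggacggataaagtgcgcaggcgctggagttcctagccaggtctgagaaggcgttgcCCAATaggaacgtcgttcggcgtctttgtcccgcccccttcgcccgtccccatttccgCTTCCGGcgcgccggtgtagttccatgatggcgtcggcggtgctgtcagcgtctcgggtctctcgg
Atp5k, chr5:108434350-108434649, minus strand: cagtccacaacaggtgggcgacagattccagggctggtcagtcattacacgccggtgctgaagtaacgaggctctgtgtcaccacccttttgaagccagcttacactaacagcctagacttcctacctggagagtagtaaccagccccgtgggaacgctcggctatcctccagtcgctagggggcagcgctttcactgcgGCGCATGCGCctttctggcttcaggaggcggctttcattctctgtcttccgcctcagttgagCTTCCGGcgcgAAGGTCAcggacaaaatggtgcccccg
The stretch shown for Ndufa12 holds none of the 5 letter strings. Each raised gene shown holds the NRF1 letters, but only 11 of the 71 members with a start region hold them. The regions of Ndufv1, Sdhd, Uqcrfs1, Cox5b and Atp5b, also called higher on both diets, lack the NRF1 letters. Those of Ndufv1, Uqcrfs1 and Cox5b hold none of the 5 strings, like that of Ndufa12. Of the other members called lower on rosiglitazone, Atp5e holds the ETS, receptor and CCAAT letters, and Cox7a2l holds none. The genes shown are therefore no sample of the raised and lowered members. A link between letters and strain difference was not tested.

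A RefSeq start region was found for 71 of the 87 members, and all 27025 regions in the table had the same length of 300 bases. The NRF1 letters stood in 11 of the 71 (15.5%), against 2.8% of all regions. The ETS letters stood in 22.5% of the members' regions, against 9.12% of all, and the receptor letters in 9.86%, against 4.66%. The YY1 letters stood in 14.1%, against 2.88%, and 7 of these 10 members were complex I genes. CCAAT stood in 46.5%, against 37.9%. The members' regions had a median GC content of 58.3%, against 52.7% of all, so letter shares and base composition differ together. These matches describe letters only.

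Levels between genes are given per kilobase of transcript, as means over the 43 libraries. The tables were not all normalized together, so these means order genes within the set and are not tested. Atp5b, the catalytic beta subunit of the ATP synthase, was highest with 4420 per kilobase. It was followed by Cox4i1, a regulatory subunit of complex IV with 2787, Atp5a1 with 1926 and Cox8a with 1812. The medians of the complexes lay closer together, at 375.9 for complex I, 645.8 for complex II, 624.8 for complex III, 368.7 for complex IV and 427 for complex V.

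Isoform genes with a known tissue bias separated from their common partners. Cox6a1, the widely expressed form of subunit 6a, had 1398 per kilobase, and Cox6a2, its heart and muscle form, had 4.172. The testis-type genes Cox7b2 and Cox8c had 3.218 and 3.046 per kilobase. In 129S1/SvImJ chow-fed library 2, which carried the epididymis markers, Cox7b2 reached 29 and Cox8c reached 10, against at most 2 and 5 in every other library. Cox6a2 was highest, at 18, in the C57BL/6 12-week eWAT library with skeletal muscle markers. Among the 3 genes for the c ring of the ATP synthase, Atp5g3 had 1222 per kilobase, Atp5g1 61.76 and Atp5g2 7.445. Atp5g1 and Atp5g2 have near-identical copies in the transcript set, and their values may be split among them. Of the 87 members, 5 had a mean value under 10 (Atp5g2, Cox6a2, Cox6b2, Cox7b2 and Cox8c). No filter on low values was used.

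**Figure D1:**
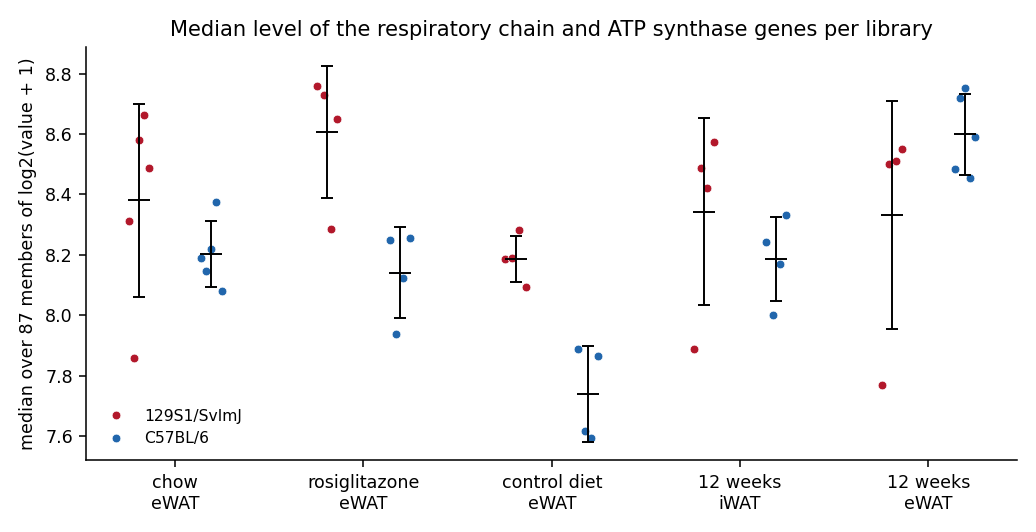
Median of log2(value + 1) over the 87 members in each library, grouped by strain, depot and diet, with each point 1 library and each bar the group mean ± SD. In the drug experiment the 4 rosiglitazone-fed 129S1/SvImJ libraries lie between 8.285 and 8.758 and the 4 rosiglitazone-fed C57BL/6 libraries between 7.937 and 8.257, while the control-fed libraries lie between 8.093 and 8.281 in 129S1/SvImJ and between 7.592 and 7.889 in C57BL/6.

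On the control diet, respiratory chain and ATP synthase transcripts were higher in 129S1/SvImJ than in C57BL/6 eWAT in all 5 complexes. Of the 87 members, 55 were called higher and 2 lower by limma at an adjusted p under 0.05. Over all genes, 10% were called higher and 7.5% lower. The median log2 fold change of the members was 0.48, against 0.01 over all genes, and 82 of 87 members had a positive one. In 50 members every 129S1/SvImJ library was above every C57BL/6 library, and in 1 every library was below. How many of all genes separated in this way was not counted, so these numbers have no background to be read against. The members' median log2 level per library was 8.093 to 8.281 in 129S1/SvImJ and 7.592 to 7.889 in C57BL/6.

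The complexes differed little from each other on this diet. The median log2 fold change was 0.54 for complex I, 0.42 for complex II, 0.44 for complex III, 0.41 for complex IV and 0.55 for complex V. Called higher were 27 of 35 complex I genes, 3 of 4 complex II genes, 6 of 8 complex III genes, 8 of 16 complex IV genes and 10 of 15 complex V genes. The 16 complex IV genes include the 4 that stayed near the floor in most libraries.

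In complex I, Ndufv1, the core subunit that binds FMN and accepts electrons from NADH, had values of 913, 805, 922 and 881 in 129S1/SvImJ and of 652, 558, 509 and 682 in C57BL/6. The groups did not overlap (log2 fold change 0.56 ± 0.13 SE, adjusted p = 0.0039, limma). Ndufs1, another core subunit that carries iron-sulfur clusters, differed by 0.52 ± 0.14 (adjusted p = 0.0135). The smallest p among all members belonged to Ndufa11, an accessory subunit of the membrane arm, with 254, 253, 308 and 221 in 129S1/SvImJ and 90, 82, 97 and 111 in C57BL/6. All 4 of the 129S1/SvImJ values stood far above those of C57BL/6 (1.44 ± 0.17, adjusted p = 6.21e-06).

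In complex II, Sdhb, the iron-sulfur subunit of succinate dehydrogenase, had 829, 672, 808 and 725 in 129S1/SvImJ and 450, 417, 370 and 617 in C57BL/6 (0.73 ± 0.15, adjusted p = 0.00208). All 4 of the 129S1/SvImJ libraries lay above all 4 of C57BL/6. Sdhc, a membrane anchor, had the smallest p of its complex (0.48 ± 0.09, adjusted p = 0.000895). The flavoprotein gene Sdha did not pass the test, with a log2 fold change of 0.19 ± 0.13 (adjusted p = 0.384).

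In complex III, the supernumerary subunit gene Uqcr11 differed most (0.71 ± 0.14, adjusted p = 0.00105). The Rieske iron-sulfur protein gene Uqcrfs1 was also called (0.47 ± 0.13, adjusted p = 0.0183). The core protein gene Uqcrc1 had 1075, 859, 1035 and 940 in 129S1/SvImJ and 716, 685, 721 and 950 in C57BL/6. Its groups overlapped through C57BL/6 library 4, and it was not called (0.35 ± 0.13, adjusted p = 0.0577).

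In complex IV, Cox4i1 had 1908, 1861, 1878 and 1732 in 129S1/SvImJ and 1582, 1323, 1250 and 1577 in C57BL/6 (0.37 ± 0.11, adjusted p = 0.018). Cox5b, a small peripheral subunit on the matrix side, had 71, 88, 92 and 71 in 129S1/SvImJ and 52, 34, 28 and 45 in C57BL/6 (1.03 ± 0.17, adjusted p = 0.00033). Neither gene overlapped between the strains. Cox5b has a copy of 99.23% identity in the transcript set, so its value may be split. The testis-type isoform gene Cox6b2 stood near the floor, with 9, 12, 9 and 12 against 2, 6, 4 and 5 in C57BL/6 (1.19 ± 0.33, adjusted p = 0.0165).

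In complex V, Atp5b had 8131, 7381, 9097 and 8700 in 129S1/SvImJ and 6079, 5597, 5134 and 6457 in C57BL/6, with no overlap (0.52 ± 0.11, adjusted p = 0.00215). Its partner in the catalytic head, Atp5a1, differed by 0.39 ± 0.11 (adjusted p = 0.0143). Atp5f1, of the peripheral stalk, had the smallest p (0.55 ± 0.10, adjusted p = 0.000829), and Atp5l, of the membrane part, the largest fold change (1.47 ± 0.42, adjusted p = 0.0187). Atp5l has 9 near-identical copies, 8 of them pseudogenes, and its values were only 13, 20, 14 and 20 in 129S1/SvImJ and 11, 3, 2 and 10 in C57BL/6. Of the c ring genes, Atp5g3 was called (0.43 ± 0.13, adjusted p = 0.0226) and neither Atp5g1 nor Atp5g2 was.

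**Figure D2:**
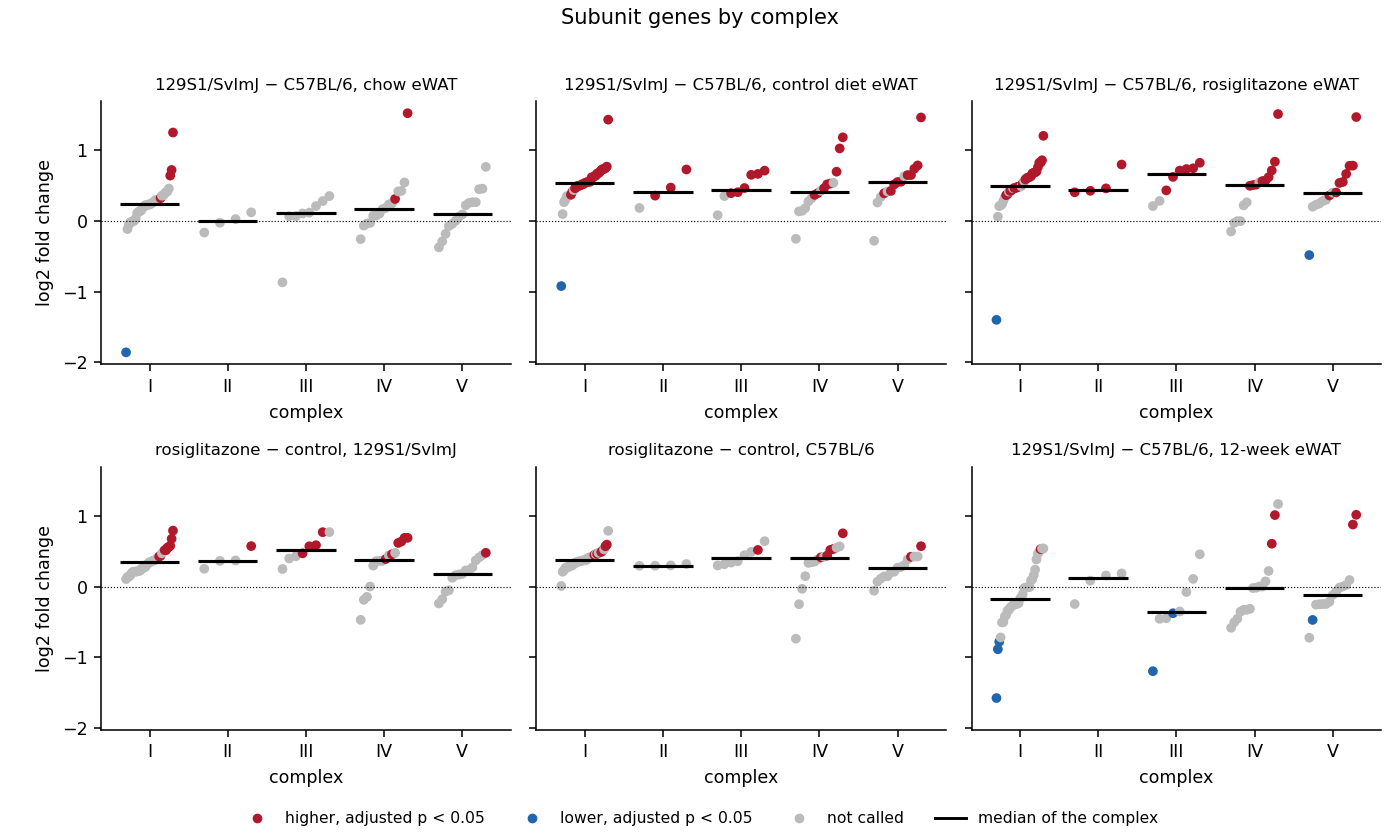
Log2 fold change of each structural subunit gene, grouped by complex, in the strain comparisons in eWAT and the rosiglitazone comparison in each strain. Points are members coloured by call and black lines are complex medians, which lie at 0.41 to 0.55 for the strain difference on the control diet and at -0.37 to 0.12 for the strain difference in 12-week eWAT.

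The 2 members lower in 129S1/SvImJ on the control diet were Ndufa12 and Cox7a2l. Ndufa12, an accessory subunit of complex I, had 24, 20, 28 and 30 in 129S1/SvImJ and 68, 51, 28 and 57 in C57BL/6 (-0.92 ± 0.24, adjusted p = 0.0108). The groups overlapped through C57BL/6 library 3. Ndufa12 has a pseudogene copy of 99.5% identity. Cox7a2l, which takes part in joining complexes III and IV into supercomplexes, had 200, 208, 196 and 219 in 129S1/SvImJ and 293, 334, 277 and 296 in C57BL/6, without overlap (-0.54 ± 0.10, adjusted p = 0.000605). It has a pseudogene copy of 100% identity over the aligned bases. The build mm9, which derives from C57BL/6, is the one named in the submitters' processing notes, and the part of strain sequence differences or copies in these values was not tested. Of the 23 members with a near-identical copy, 11 were called higher and 2 lower, and of the 64 without one, 44 were called higher and 0 lower.

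Other cell type markers moved with the strain on the control diet. Of 7 endothelial markers, 6 were called lower in 129S1/SvImJ, with sums of 2168 to 2753 in 129S1/SvImJ and 3509 to 5449 in C57BL/6. Of 8 brown or beige adipocyte markers, 4 were called higher, with sums of 246 to 434 in 129S1/SvImJ and 122 to 162 in C57BL/6. Cox7a1 and Cox8b, complex IV genes that the rule left out, are among these 8 markers wherever they are counted. This marker list is thus not separate from the respiratory chain. Of 10 adipocyte markers, 3 were called higher, and the sums overlapped, at 145600 to 157500 in 129S1/SvImJ and 143900 to 160400 in C57BL/6. Of 8 macrophage markers, none was called. The part of these cells in the members' difference was not tested. Over all 13386 genes with a mean of at least 10, fold change went with transcript length (Spearman's rho -0.358), and over the 82 members above that mean rho was -0.128. For the strain difference on rosiglitazone rho was -0.266 over all genes and -0.0374 over the members, and on chow -0.241 and -0.259. A rho within the members does not show how length bears on their median against all genes. No length trend was removed, and its part in the members' difference was not tested.

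With rosiglitazone in the diet, the strain difference again ran through all 5 complexes. Of the 87 members, 52 were called higher in 129S1/SvImJ and 3 lower, against 5.45% and 5.23% of all genes. The median log2 fold change was 0.47, and 0.49, 0.45, 0.67, 0.51 and 0.40 for complexes I to V. Called higher were 24 complex I genes, 4 of 4 complex II genes, 6 of 8 complex III genes, 9 complex IV genes and 8 complex V genes. In 36 members every 129S1/SvImJ library was above every C57BL/6 library, and in 3 below, with the share over all genes again not counted.

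The libraries of this comparison are other than those on the control diet, but the calls are not independent. Both tests used the same spread estimate for each gene, taken over the 16 libraries. Of the members called higher, 47 were shared, which is 85.5% of the 55 on the control diet and 90.4% of the 52 on rosiglitazone. The fold changes of the 87 members ranked alike in both (Spearman's rho 0.711, across genes, which are not independent replicates), and 80 had the same sign. Cox7a2l (-0.49 ± 0.10, adjusted p = 0.00202) and Ndufa12 (-1.40 ± 0.24, adjusted p = 0.0006) were lower again. The third gene lower on rosiglitazone was Atp5e, the epsilon subunit of the ATP synthase, with 347, 337, 216 and 327 in 129S1/SvImJ and 422, 395, 403 and 468 in C57BL/6 (-0.48 ± 0.13, adjusted p = 0.0218). On the control diet it was not called (-0.28 ± 0.13, adjusted p = 0.171).

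Named subunits of each complex were among the genes higher on rosiglitazone. Ndufv1 had 1607, 1908, 1186 and 1474 in 129S1/SvImJ and 986, 743, 760 and 881 in C57BL/6 (0.86 ± 0.13, adjusted p = 0.00013). Uqcrc1 had 1743, 1935, 1293 and 1741 in 129S1/SvImJ and 1037, 808, 896 and 1023 in C57BL/6 (0.83 ± 0.13, adjusted p = 0.00017). Atp5b had 12100, 13828, 9671 and 11028 in 129S1/SvImJ and 7199, 5987, 6259 and 7491 in C57BL/6 (0.79 ± 0.11, adjusted p = 6.23e-05). In each of these the lowest 129S1/SvImJ value, in library 3, was above the highest C57BL/6 value. Sdhb had 995, 1217, 733 and 1024 in 129S1/SvImJ and 664, 453, 558 and 586 in C57BL/6 (0.80 ± 0.15, adjusted p = 0.00151), again without overlap. Cox4i1 had 3337, 3401, 2487 and 2768 in 129S1/SvImJ and 2025, 1743, 1864 and 2114 in C57BL/6 (0.62 ± 0.11, adjusted p = 0.000503). Sdha (0.46 ± 0.13, adjusted p = 0.0229), Ndufs1 (0.70 ± 0.14, adjusted p = 0.00248), Uqcrfs1 (0.72 ± 0.13, adjusted p = 0.00123), Cox5b (0.72 ± 0.17, adjusted p = 0.00974) and Atp5a1 (0.41 ± 0.11, adjusted p = 0.0187) were called higher as well. When only the 8 libraries of these groups were fitted, 14 members were called. The share of all genes called in that fit is not given here. Of 8 brown or beige markers, 6 were called higher in 129S1/SvImJ (sums of 1279 to 2630 against 294 to 349 in C57BL/6), and of 7 endothelial markers 3 were called lower (sums of 1942 to 3069 against 2594 to 4123). Their part in the members' values was not tested.

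**Figure D3:**
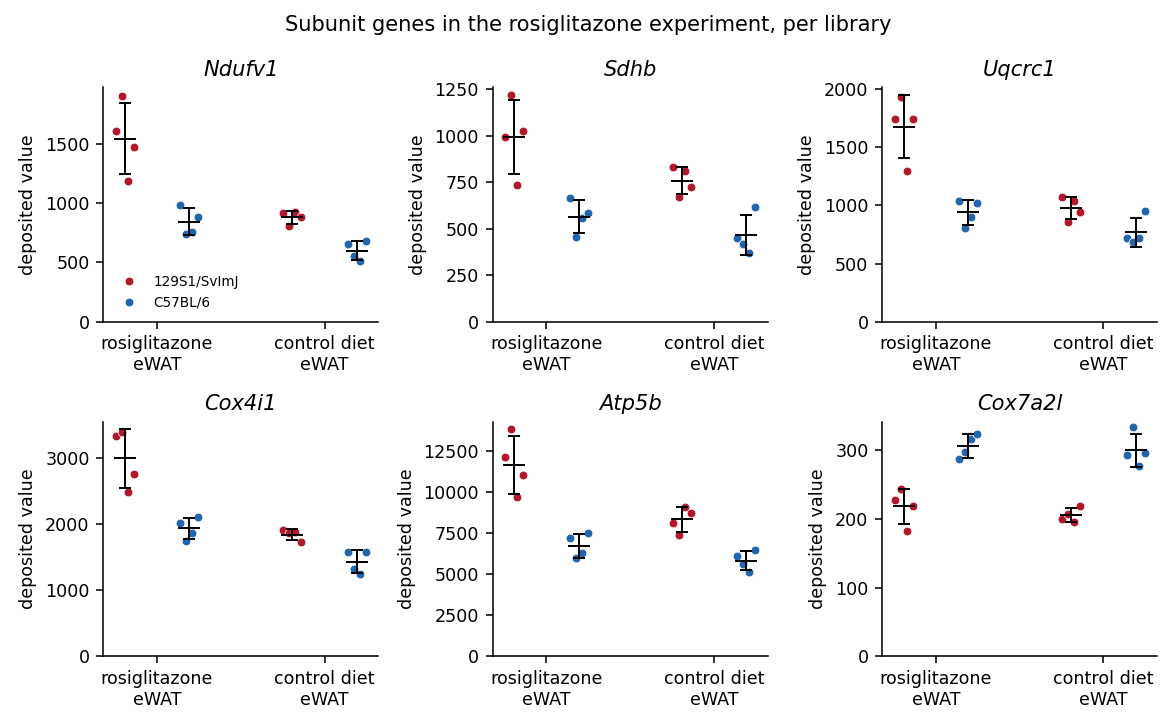
Normalized values of Ndufv1, Sdhb, Uqcrc1, Cox4i1, Atp5b and Cox7a2l in the 16 libraries of the drug experiment, with points for libraries and bars for mean ± SD. Atp5b lies between 9671 and 13828 in rosiglitazone-fed 129S1/SvImJ, between 5987 and 7491 in rosiglitazone-fed C57BL/6, between 7381 and 9097 in control-fed 129S1/SvImJ and between 5134 and 6457 in control-fed C57BL/6, whereas Cox7a2l is lower in 129S1/SvImJ on both diets.

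On chow, few members passed the test with all libraries, and most of those that did were complex I accessory subunits. Called higher in 129S1/SvImJ were 6 members, Ndufa1, Ndufa6, Ndufa7, Ndufa11, Cox4i1 and Cox6b2, and 1 was called lower, Ndufa12, against 2.39% and 2.61% of all genes. The median log2 fold change was 0.20, with 0.24, 0.00, 0.11, 0.18 and 0.10 for complexes I to V. Ndufa11 had 401, 304, 336, 316 and 299 in 129S1/SvImJ and 138, 141, 127, 144 and 138 in C57BL/6 (1.25 ± 0.08, adjusted p = 0.000366), with no overlap. Ndufa12 had 15, 12, 43, 29 and 21 in 129S1/SvImJ and 92, 82, 102, 92 and 50 in C57BL/6 (-1.86 ± 0.35, adjusted p = 0.0215), again without overlap. Cox4i1 had 2004, 2348, 2380, 2485 and 2070 in 129S1/SvImJ and 1729, 1778, 1883, 1941 and 1728 in C57BL/6 (0.31 ± 0.07, adjusted p = 0.0357). Cox6b2 had 16, 52, 28, 19 and 18 in 129S1/SvImJ and 5, 8, 6, 10 and 11 in C57BL/6 (1.53 ± 0.34, adjusted p = 0.0425), and its highest value came from the library with epididymis markers.

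The chow count rested largely on 129S1/SvImJ library 2, which carried epididymis markers. Sdhb had 744, 311, 1000, 1103 and 919 in 129S1/SvImJ and 801, 596, 773, 792 and 522 in C57BL/6, so that library 2 held the lowest value of all 10 (0.12 ± 0.34, adjusted p = 0.954). Without 129S1/SvImJ libraries 1 and 2, 30 members were called higher and 1 lower, against 6.71% and 4.64% of all genes, and the medians of complexes I to V were 0.47, 0.33, 0.37, 0.32 and 0.26. Atp5b changed sign, with -0.04 ± 0.19 over all libraries and 0.22 without them (adjusted p = 0.0334), and Ndufv1 had 0.53 (adjusted p = 0.0287). Sdhb had 0.55 and was not called (adjusted p = 0.097). Without library 2 alone, 27 members were called higher and 2 lower, and without library 1 alone, 4 higher and 0 lower. The shares of all genes in these 2 fits are not given here. No marker of another cell type was called on chow over all libraries, though sums of the 7 endothelial markers did not overlap, at 745 to 3612 in 129S1/SvImJ and 3801 to 5726 in C57BL/6.

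Across the strain comparisons in eWAT on chow, control diet and rosiglitazone, which share no library, 63 members had a positive log2 fold change in each and 3 a negative one in each (Atp5e, Cox7a2l and Ndufa12). Called higher in all 3 were 5 members, Cox4i1, Cox6b2, Ndufa1, Ndufa6 and Ndufa11. A further 43 were called higher in 2 of them and 12 in 1, and 27 in none. The calls on the control diet and on rosiglitazone rest on the same spread estimate for each gene. Ndufa1 is an X-linked accessory subunit of complex I, with log2 fold changes of 0.69 ± 0.15 (adjusted p = 0.0033) on rosiglitazone, 0.52 ± 0.15 (adjusted p = 0.0155) on the control diet and 0.72 ± 0.13 (adjusted p = 0.0158) on chow. Ndufa12 was the member called lower in all 3, and Cox7a2l in 2.

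With rosiglitazone, a minority of the members was called higher in each strain and none lower. In 129S1/SvImJ, 21 members were called higher than on the control diet and 0 lower, against 2.96% and 2.56% of all genes, with a median log2 fold change of 0.34. In C57BL/6, 14 were called higher and 0 lower, against 1.53% and 0.901% of all genes, with a median of 0.35. Positive fold changes were found in 77 members in 129S1/SvImJ and in 82 in C57BL/6. In 22 members of each strain all rosiglitazone libraries were above all control libraries, and the share over all genes was not counted.

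The largest complex medians with the drug were those of complex III in both strains, joined by complex IV in C57BL/6. In 129S1/SvImJ the medians of complexes I to V were 0.34, 0.37, 0.52, 0.38 and 0.18, and 9, 1, 4, 6 and 1 genes were called higher. In C57BL/6 they were 0.37, 0.30, 0.40, 0.40 and 0.27, and 6, 0, 1, 5 and 2 genes were called. Called in both strains were 8 members: Ndufa10, Ndufb3, Ndufc2 and Ndufv1 of complex I and Cox4i1, Cox6a1, Cox6b1 and Cox6c of complex IV. These are 38.1% of the 21 and 57.1% of the 14. The strains share no library here, but both tests used the same spread estimate for each gene. The members' fold changes ranked with a Spearman's rho of 0.582 across genes, with the same sign in 77.

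In 129S1/SvImJ, Ndufv1 had 1607, 1908, 1186 and 1474 on rosiglitazone and 913, 805, 922 and 881 on the control diet (0.79 ± 0.13, adjusted p = 0.000476). In C57BL/6 it had 986, 743, 760 and 881 on rosiglitazone and 652, 558, 509 and 682 on the control diet (0.49 ± 0.13, adjusted p = 0.0452). The diets did not overlap in either strain. Cox4i1 rose by 0.69 ± 0.11 in 129S1/SvImJ (adjusted p = 0.000287) and by 0.44 ± 0.11 in C57BL/6 (adjusted p = 0.0294). Cox6a1, the common isoform of subunit 6a, rose by 0.69 ± 0.14 in 129S1/SvImJ (adjusted p = 0.00294) and by 0.52 ± 0.14 in C57BL/6 (adjusted p = 0.0454). Ndufb3, a membrane arm subunit with a near-identical copy, rose by 0.58 ± 0.13 in 129S1/SvImJ (adjusted p = 0.00674) and by 0.59 ± 0.13 in C57BL/6 (adjusted p = 0.0117).

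Several core subunits passed in 129S1/SvImJ alone. Uqcrc1 had 1743, 1935, 1293 and 1741 on rosiglitazone there, against 1075, 859, 1035 and 940 on the control diet (0.77 ± 0.13, adjusted p = 0.000545), and in C57BL/6 its fold change was 0.30 ± 0.13 (adjusted p = 0.276). Atp5b had 0.48 ± 0.11 in 129S1/SvImJ (adjusted p = 0.0101) and 0.21 ± 0.11 in C57BL/6 (adjusted p = 0.415). Sdha had 0.57 ± 0.13 in 129S1/SvImJ (adjusted p = 0.00858) and 0.29 ± 0.13 in C57BL/6 (adjusted p = 0.294). Uqcrfs1 had 0.59 ± 0.13 in 129S1/SvImJ (adjusted p = 0.0101) and 0.34 ± 0.13 in C57BL/6 (adjusted p = 0.235). An effect called in one strain alone is not shown to differ between them. In C57BL/6, Cox5b (0.75 ± 0.17, adjusted p = 0.0218), Atp5o (0.57 ± 0.15, adjusted p = 0.0418), Atp5f1 (0.42 ± 0.10, adjusted p = 0.0323) and Uqcr11 (0.52 ± 0.14, adjusted p = 0.0497) were called, of which Atp5o encodes a stalk protein that joins head and stalk of the ATP synthase. Sdhb, Ndufs1 and Atp5a1 were called in neither strain.

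The difference of the drug responses between the strains was tested directly, and no member passed. 0 were called higher and 0 lower, against 0.0743% and 0.136% of all genes, and 1 member had an unadjusted p under 0.05 (limma). The median of the differences was -0.01. Among the named subunits, positive differences were seen in Uqcrc1 (0.47 ± 0.18, adjusted p = 0.355), Ndufv1 (0.30 ± 0.18, adjusted p = 0.629), Sdha (0.28 ± 0.18, adjusted p = 0.671), Atp5b (0.27 ± 0.15, adjusted p = 0.61) and Cox4i1 (0.25 ± 0.15, adjusted p = 0.628). A negative one was seen in Cox5b (-0.31 ± 0.25, adjusted p = 0.729). A miss of the threshold does not show that the strains respond alike.

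Some brown and beige adipocyte markers moved with the drug in each strain. Their summed value was 1279 to 2630 in rosiglitazone-fed 129S1/SvImJ, 294 to 349 in rosiglitazone-fed C57BL/6, 246 to 434 in control-fed 129S1/SvImJ and 122 to 162 in control-fed C57BL/6, and 6 of 8 markers were called higher with the drug in 129S1/SvImJ and 3 of 8 in C57BL/6. Ucp1, the uncoupling protein of brown adipocytes, had 241, 481, 245 and 680 in rosiglitazone-fed 129S1/SvImJ against 4, 14, 59 and 9 in control-fed 129S1/SvImJ. In C57BL/6 it had 4, 5, 3 and 4 with rosiglitazone against 4, 4, 4 and 3 without, and the difference between the strains' responses was 4.62 ± 0.75 (adjusted p = 0.0165). Of the 8 markers, Ucp1 was the 1 that passed the test of that difference. Cox8b, a muscle and brown fat isoform of subunit 8 that the rule leaves out, rose by 2.46 ± 0.35 in 129S1/SvImJ (adjusted p = 0.000489), more than any member. Of 8 macrophage markers, 1 was called lower in each strain. The part of these cell types in the members' values was not tested. Fold change with the drug in C57BL/6 went with transcript length over 82 members (Spearman's rho -0.389) and over all 13386 genes (-0.211). The part of length in the members' values was not tested.

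The call counts with the drug depended on single libraries. Without rosiglitazone-fed 129S1/SvImJ library 2, 10 members were called in that strain, and without library 3, 39 were. In C57BL/6, 1 member was called without control library 3 or without rosiglitazone library 1 or 4, and 28 without rosiglitazone library 2. When only the 8 libraries of a strain were fitted, 9 members were called in 129S1/SvImJ and 0 in C57BL/6. For these fits and those without 1 library, the shares of all genes are not given here.

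After 12 weeks on the low fat diet, the strains' eWAT did not show the common shift. Called higher in 129S1/SvImJ were 9 members and called lower 8, against 11.6% and 10.2% of all genes, and the median log2 fold change was -0.12. Medians of complexes I to V were -0.17, 0.12, -0.37, -0.02 and -0.12. The libraries are other than those of the control diet, with which 34 of 87 members shared the sign (Spearman's rho 0.267 across genes). Called higher in both were 5 members (Atp5g3, Atp5l, Cox5b, Ndufaf4 and Ndufb2) and lower in both 2 (Cox7a2l and Ndufa12).

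Among the members lower in 12-week 129S1/SvImJ eWAT, Ndufa12 had 29, 30, 34 and 35, against 89, 118, 97, 79 and 108 in C57BL/6 (-1.58 ± 0.12, adjusted p = 0.000341). Uqcrq, a small subunit of complex III, had 56, 56, 54 and 53, against 129, 150, 138, 91 and 135 in C57BL/6 (-1.20 ± 0.14, adjusted p = 0.00129). Cox7a2l had 167, 242, 269 and 308, against 442, 416, 417, 404 and 433 in C57BL/6 (-0.81 ± 0.16, adjusted p = 0.0125). None of these overlapped between the strains. Ndufa13, an accessory subunit of complex I also known as GRIM-19, had 230, 435, 467 and 485, against 652, 818, 776, 663 and 699 in C57BL/6 (-0.89 ± 0.23, adjusted p = 0.0309). It had been higher in 129S1/SvImJ on the control diet (0.64 ± 0.15, adjusted p = 0.00398), and so had Ndufb7 (0.70 ± 0.10, adjusted p = 0.000105), which was lower here (-0.78 ± 0.20, adjusted p = 0.0285). The others called lower were Uqcrc1 (-0.38 ± 0.11, adjusted p = 0.0484), Atp5d (-0.47 ± 0.10, adjusted p = 0.013) and Ndufa4l2 (-1.20 ± 0.10, adjusted p = 0.00044).

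Among those higher, Cox5b had 58, 104, 108 and 92 in 129S1/SvImJ and 44, 50, 39, 46 and 38 in C57BL/6 (1.01 ± 0.19, adjusted p = 0.00975). Atp5g3, a c ring gene, had 676, 1157, 1115 and 1182 in 129S1/SvImJ and 455, 585, 495, 443 and 526 in C57BL/6 (1.01 ± 0.18, adjusted p = 0.0079). Both were without overlap, with 129S1/SvImJ library 1 the lowest of its group. The others called higher were Cox5a, which binds near the matrix face of complex IV (0.61 ± 0.10, adjusted p = 0.00568), Ndufb2, Atp5l, Atp5s, Cox4nb and the assembly factors Ndufaf1 (0.50 ± 0.08, adjusted p = 0.00464) and Ndufaf4 (0.50 ± 0.09, adjusted p = 0.0077). Ndufa11, the leading gene of the other diets, had 124, 242, 258 and 266 in 129S1/SvImJ and 204, 216, 251, 208 and 197 in C57BL/6 (-0.01 ± 0.23, adjusted p = 1). Without C57BL/6 library 3, which holds muscle markers, 8 were called higher and 5 lower, and Ndufa13, Ndufb7, Uqcrc1 and Atp5l were no longer called. Without 129S1/SvImJ library 1, whose median over the members was 7.768 against 8.5 to 8.551 in the others of its group, 21 members were called higher and 11 lower, with a median of 0.00. The shares of all genes in these fits without 1 library are not given here. Endothelial markers were lower in 129S1/SvImJ in 7 of 7 (sums of 1817 to 2575 against 4739 to 5296 in C57BL/6). Brown or beige markers were higher in 3 of 8 (sums of 371 to 643 against 162 to 238), mesothelial markers lower in 2 of 5 (1345 to 1672 against 1644 to 2444), skin and glandular epithelium markers lower in 2 of 7 (60 to 101 against 134 to 265), and adipocyte markers higher in 2 and lower in 3 of 10 (158300 to 224100 against 187100 to 201900). Their part in the members' values was not tested.

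The base composition of the transcripts went with these fold changes. Across the 82 members with a mean of at least 10, the log2 fold change between the strains in 12-week eWAT had a Spearman's rho of -0.433 with transcript GC, and across all 13386 genes of that level -0.39. For each library, the deviation of each gene from its mean over the 17 12-week libraries was set against GC. All 5 C57BL/6 12-week eWAT libraries showed a positive trend (rho 0.31 to 0.398 per library), and the 12 other 12-week libraries lay between -0.271 and -0.0135. These trends are relative to the shared mean, so a positive trend in one group pushes the others down. The GC trend was removed from each library over the genes with a mean of at least 10, and the complex III median was then -0.11 in place of -0.37. That filter alone gave 14 members higher and 16 lower, and with the trend removed as well 12 were called higher and 14 lower. Fewer genes were tested with the filter, so the shares of all genes given above do not apply to these counts. The same holds for each later count that uses this filter. Of the genes named above, Uqcrc1 was no longer called (-0.11, adjusted p = 0.408), while Ndufa12, Uqcrq, Cox7a2l, Ndufa13, Cox5b and Atp5g3 were. On the control diet the corresponding rho was 0.0444 over the members, the filter alone gave 59 members higher and 2 lower, and with the trend removed 58 were called higher and 2 lower.

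**Figure D4:**
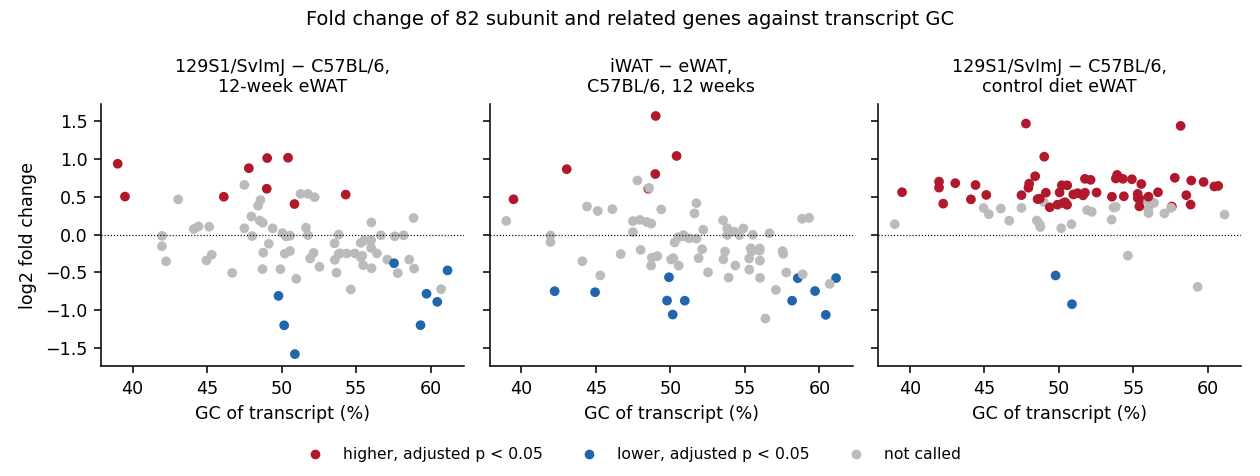
Log2 fold change of the 82 members with a mean of at least 10 against the GC content of their transcripts, for the strain difference in 12-week eWAT, the depot difference in C57BL/6 and the strain difference on the control diet. Spearman's rho is -0.433, -0.386 and 0.0444 over the members.

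In iWAT after 12 weeks, no member was called between the strains, with 0 higher and 0 lower, against 1.13% and 0.56% of all genes. The median log2 fold change was 0.05, and 7 members had an unadjusted p under 0.05 (limma). Ndufa11 had 197, 250, 267 and 290 in 129S1/SvImJ and 82, 117, 132 and 146 in C57BL/6 (1.08 ± 0.21, adjusted p = 0.0789). Ndufa12 had 16, 35, 39 and 30 in 129S1/SvImJ and 115, 69, 123 and 90 in C57BL/6 (-1.73 ± 0.33, adjusted p = 0.0735). Both had no overlap, and their fold changes had the sign seen on chow and on the control diet without passing the test. Without library 4 of each strain, 0 members were called, and without 129S1/SvImJ library 1 alone, 1 was called.

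Between depots in C57BL/6, 6 members were called higher in iWAT than in eWAT and 11 lower, against 5.27% and 7.81% of all genes. The C57BL/6 eWAT libraries are those of the strain comparison above, so the comparisons share them. Medians of complexes I to V were -0.20, 0.24, -0.37, -0.23 and -0.18. Cox5b had 143, 86, 150 and 154 in iWAT and 44, 50, 39, 46 and 38 in eWAT (1.57 ± 0.21, adjusted p = 0.00036). Atp5g3 had 1001, 932, 1080 and 1095 in iWAT and 455, 585, 495, 443 and 526 in eWAT (1.04 ± 0.15, adjusted p = 0.000587). Both were higher in iWAT without overlap. The others called higher were Sdha (0.61 ± 0.19, adjusted p = 0.0479), Cox5a (0.80 ± 0.19, adjusted p = 0.0141), Ndufaf4 (0.47 ± 0.13, adjusted p = 0.032) and Ndufs4, an accessory subunit of complex I (0.86 ± 0.18, adjusted p = 0.0069). Lower in iWAT were Ndufa13, Ndufa11, Ndufb3, Ndufb7, Uqcrq, Uqcrb, Uqcrh, Cox6b1, Cox8a, Atp5d and Cox7a2l. Ndufa13 had 365, 280, 421 and 326 in iWAT and 652, 818, 776, 663 and 699 in eWAT (-1.06 ± 0.20, adjusted p = 0.00345). Uqcrq had 62, 53, 59 and 69 in iWAT and 129, 150, 138, 91 and 135 in eWAT (-1.06 ± 0.21, adjusted p = 0.00505). The filter on a mean of 10 alone gave 7 higher and 12 lower, and with the GC trend removed as well 7 were called higher and 7 lower, with a median over the members of 0.00 in place of -0.18. Without the eWAT library that holds muscle markers, 5 were called higher and 6 lower. Without library 4 of C57BL/6 iWAT, 5 were called higher and 11 lower. Sdha (0.47, adjusted p = 0.129), Ndufaf4 (0.47, adjusted p = 0.057), Cox8a (-0.59, adjusted p = 0.0677) and Ndufb7 (-0.71, adjusted p = 0.0695) were then no longer called, and Atp5g2 (1.39, adjusted p = 0.0158), Atp5h (-0.54, adjusted p = 0.0428) and Ndufs8 (-0.63, adjusted p = 0.0457) were. Mesothelial markers, of the covering of visceral fat, were lower in iWAT in 5 of 5, with sums of 5 to 21 in iWAT and 1644 to 2444 in eWAT. Brown or beige markers were higher in 4 of 8, with sums of 450 to 6751 in iWAT and 162 to 238 in eWAT. The part of these cells in the members' values was not tested.

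In 129S1/SvImJ, iWAT and eWAT did not differ in any member by the same test. 0 were called higher and 0 lower, against 0.525% and 1.19% of all genes, and 0 had an unadjusted p under 0.05 (limma). The median was 0.01, and the medians of complexes I to V were 0.04, 0.13, 0.09, 0.00 and -0.01. Atp5g3 had 889, 1039, 1048 and 1158 in iWAT and 676, 1157, 1115 and 1182 in eWAT (0.03 ± 0.16, adjusted p = 1). Cox5b had 64, 89, 86 and 102 in iWAT and 58, 104, 108 and 92 in eWAT (-0.07 ± 0.22, adjusted p = 1). The ranges of the depots overlapped for both genes. In every fit that left out 1 library of these groups, 0 members were called.

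The depot difference was tested between the strains, and 3 members passed, 1 higher and 2 lower in 129S1/SvImJ than in C57BL/6, against 1.43% and 1.7% of all genes. For Cox5b the difference between the strains' log2 depot changes was -1.63 ± 0.30 (adjusted p = 0.0143), for Atp5g3 -1.01 ± 0.22 (adjusted p = 0.0263) and for Ndufa13 1.18 ± 0.29 (adjusted p = 0.0426). 18 members had an unadjusted p under 0.05, and the complex III median was 0.58. The filter on a mean of 10 alone gave 3 higher and 2 lower. With the GC trend removed as well, Cox5b (-1.61, adjusted p = 0.0075) and Atp5g3 (-1.04, adjusted p = 0.0118) were still called and Ndufa13 was not (0.66, adjusted p = 0.16). Without library 4 of each strain's iWAT, Ndufa13 was not called (1.11, adjusted p = 0.0999), while Cox5a (-0.88, adjusted p = 0.0449) and Cox7a2l (1.04, adjusted p = 0.041) were called beside Cox5b and Atp5g3. Without C57BL/6 eWAT library 3, 0 were higher and 2 lower, and without 129S1/SvImJ iWAT library 1, 4 were higher and 2 lower. Ndufa13 was called in 4 of 17 fits that left out 1 library, Atp5g3 in 16 and Cox5b in 17.

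**Figure D5:**
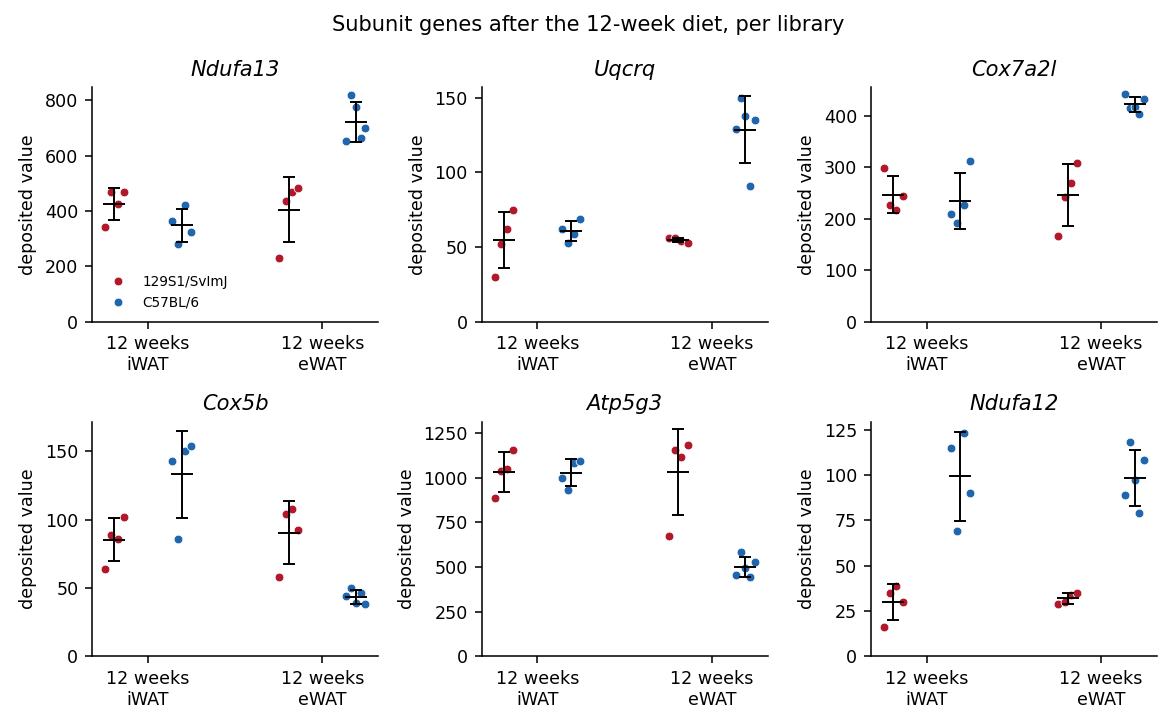
Normalized values of Ndufa13, Uqcrq, Cox7a2l, Cox5b, Atp5g3 and Ndufa12 in the 17 libraries of the 12-week low fat diet, by depot and strain, with points for libraries and bars for mean ± SD. C57BL/6 eWAT stands apart from the other 3 groups for Uqcrq and Atp5g3, while Ndufa12 lies between 16 and 39 in 129S1/SvImJ and between 69 and 123 in C57BL/6 in both depots.

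Genes around the chain were read from lists. The genes of cytochrome c (Cycs), the mobile carrier between complexes III and IV, and of cytochrome c1 (Cyc1), a subunit of complex III, were called higher in 129S1/SvImJ on rosiglitazone (Cycs 0.82 ± 0.19, adjusted p = 0.00866, Cyc1 0.66 ± 0.15, adjusted p = 0.00506) and on the control diet (Cycs 0.79 ± 0.19, adjusted p = 0.00694, Cyc1 0.52 ± 0.15, adjusted p = 0.0169). With the drug both rose in 129S1/SvImJ and Cycs in C57BL/6. Of 12 complex IV assembly genes, 3 were called higher in 129S1/SvImJ on rosiglitazone and 6 on the control diet, with none lower, led by Cox18, an insertase for a core subunit (1.00 ± 0.17, adjusted p = 0.000439 on the control diet). Of 12 coenzyme Q synthesis genes, 4 were higher and 1 lower on rosiglitazone and 4 higher on the control diet, where Coq5, a methyltransferase of the pathway, had 0.56 ± 0.11 (adjusted p = 0.000893). Of 8 mitochondrial carriers and porins, 5 were higher on rosiglitazone and 6 on the control diet, led by the ADP/ATP carrier Slc25a4 (0.68 ± 0.10, adjusted p = 0.000129). Of 4 complex III assembly genes, none was called in any strain comparison. Of 5 other complex I assembly genes, 2 were higher on rosiglitazone and none on the control diet, of 2 complex II assembly genes none and 2, and of 4 assembly and inhibitor genes of the ATP synthase 2 and 1.

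Of 13 nuclear regulators of respiratory genes, none was called higher in 129S1/SvImJ on the control diet and 2 were called lower, against 10% and 7.5% of all genes. They were the PGC-1-related coactivator gene Pprc1 (-0.67 ± 0.16, adjusted p = 0.00592) and Yy1 (-0.34 ± 0.10, adjusted p = 0.0282). On rosiglitazone 2 were called higher and 0 lower, against 5.45% and 5.23% of all genes, and they were Ppara (1.09 ± 0.19, adjusted p = 0.000525) and Esrra, an oestrogen-related receptor gene (0.34 ± 0.11, adjusted p = 0.0486). With the drug, 129S1/SvImJ gained Ppara (1.46 ± 0.19, adjusted p = 3.91e-05), Esrrg (1.47 ± 0.36, adjusted p = 0.0158) and the coactivator gene Ppargc1b (0.86 ± 0.24, adjusted p = 0.0409), and C57BL/6 gained Ppargc1b (0.99 ± 0.24, adjusted p = 0.0333). Of 11 genes for mitochondrial DNA maintenance and expression, 2 were higher on rosiglitazone and 2 on the control diet. In 12-week eWAT 4 of these were higher and 3 lower, and 5 of the 13 regulators were higher and 2 lower.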

How the data were processed

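The authors sequenced RNA libraries made with a TruSeq RNA kit on a Genome Analyzer, per the labels' protocols. HOMER and mm9 are named in the submitters' processing notes, and neither the normalization step nor the read depth is stated. The 5 deposited tables hold 28644 transcript rows of normalized whole-number values, read as a score with a floor of 1, and the authors' own comparison columns in them were not used. Libraries of one experiment share their highest values, as do the 12-week eWAT and iWAT tables, so depots were compared across these. The chow table stands on its own. The 8 control libraries of the 2 drug tables were identical and used once.

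For each of 22869 symbols the transcript row with the highest total was kept, and log2(value + 1) was fitted with limma 3.58.1 (trend, robust) in R 4.3.3, with 1 mean per group. The drug experiment was fitted over 16 libraries, the depot comparisons over 17 and the others over their own groups. P-values are two-sided and adjusted by Benjamini-Hochberg over all genes, and a gene was called at an adjusted p under 0.05. Fold changes are on the log2(value + 1) scale, which understates those of low genes. A value given as x ± y beside an adjusted p is a log2 difference with its standard error. Levels per kilobase, transcript GC and near-identical copies (at least 95% identity over at least 200 bases) used GENCODE vM21 transcripts, and start regions came from RefSeq. Python 3.11.15, numpy 2.4.6, pandas 2.3.3 and matplotlib 3.10.9 were used. The fit was tested on simulated data.

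The members, gene lists and tests were chosen with earlier results of these data known. Genes named in the text were the subunits Ndufs1, Ndufv1, Sdha, Sdhb, Uqcrc1, Uqcrfs1, Cox4i1, Cox5b, Atp5a1 and Atp5b. To these were added, per comparison and complex, the smallest p and the largest fold change (higher group averaging 5 or more). Members called against the majority, Atp5g1 to Atp5g3, tissue isoforms, and up to 3 genes per list were named too. Median centring, array weights, a filter on a mean of 10, a pseudocount of 8, summed rows and fits without each library were tried as alternatives.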

Additional observations from a re-analysis of the deposited data

Results flagged for a closer look

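Among 92 groups of 4 or 5 libraries tested, 7 held a library far from the others by Dixon's criterion, where chance alone flags about 1 in 20. In 129S1/SvImJ 12-week eWAT, library 1 had a median log2 level over the members of 7.768, against 8.5 to 8.551 in the other 3. The same library was apart for Ndufa11, at 124 against 242 to 266, and for Atp5g3, at 676 against 1115 to 1182. Uqcrc1 stood at 950 in control-fed C57BL/6 library 4, against 685 to 721 in the others. Cox5b stood at 86 in C57BL/6 iWAT library 2, against 143 to 154. In rosiglitazone-fed 129S1/SvImJ, Atp5e stood at 216 in library 3, against 327 to 347, and Cox6b2 at 9 in library 1, against 14 to 15.

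The depot difference, iWAT over eWAT, was not the same in the strains for 3 members by the test of the difference itself in limma. Of these, 1 was higher and 2 lower, against 1.43% and 1.7% of all genes, so the members did not stand out as a set. For Atp5g3 the difference between strains was -1.01 (adjusted p = 0.0263), with log2 depot changes of 0.03 in 129S1/SvImJ and 1.04 in C57BL/6. For Cox5b it was -1.63 (adjusted p = 0.0143), with -0.07 in 129S1/SvImJ and 1.57 in C57BL/6. For Ndufa13 it was 1.18 (adjusted p = 0.0426), with 0.12 in 129S1/SvImJ and -1.06 in C57BL/6.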

How the results depend on the processing

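The GC and iWAT library 4 alternatives were chosen after seeing the data. Of 5007 values of named members under all alternatives, 4720 stayed on the same side of the threshold, 212 lost a call, 74 gained one and 1 reversed. Signs were compared only where the main fit or the alternative called the gene, so uncalled values may have changed sign unseen. That one was Atp5b on chow, at 0.22 without 129S1/SvImJ libraries 1 and 2. Of 985 complex medians, 18 moved by at least the SD of the log2 fold changes among the genes of that complex. That limit is a spread between genes, not between libraries. Counts of members called that moved by over 1.5 times were as follows, and the cause was not tested. The shares of all genes under the alternatives are given only for chow without 129S1/SvImJ libraries 1 and 2. Elsewhere a moved count cannot be set against the change over all genes.

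With array weights, 38 members were called on chow, 24 with rosiglitazone in C57BL/6, 39 with it in 129S1/SvImJ, 2 between strains in iWAT and 6 for strain by depot. A filter on a mean of 10, which tests fewer genes, gave 22 with rosiglitazone in C57BL/6, 30 between strains in 12-week eWAT, 2 in iWAT and 5 for strain by depot. With the GC trend removed on top of that filter, 26 were called between strains in 12-week eWAT and 3 in iWAT. With transcript rows summed, 9 were called with rosiglitazone in C57BL/6. With only the 2 compared groups fitted, 14 were called between strains on rosiglitazone, 9 with the drug in 129S1/SvImJ and 0 in C57BL/6. Of structural subunits only, which are fewer, 11 were called between strains in 12-week eWAT. Without 129S1/SvImJ chow libraries 1 and 2, 31 were called on chow.

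Leaving out 1 library at a time, the number called ranged from 3 to 29 on chow, 34 to 62 between strains on rosiglitazone, 43 to 59 on the control diet, 1 to 28 with the drug in C57BL/6 and 10 to 39 in 129S1/SvImJ. After 12 weeks it ranged from 12 to 32 between strains in eWAT, 0 to 1 in iWAT, 11 to 16 between depots in C57BL/6 and 1 to 6 for strain by depot. The highest chow count was without 129S1/SvImJ library 2, the highest in 12-week eWAT without 129S1/SvImJ library 1. Called in every such fit were 36 of 57 members on the control diet, 32 of 55 between strains on rosiglitazone, 10 of 21 with the drug in 129S1/SvImJ, 0 of 14 in C57BL/6, 3 of 7 on chow, 12 of 17 in 12-week eWAT, 9 of 17 between depots in C57BL/6 and 1 of 3 for strain by depot.

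In no pair of groups did all libraries with the same number deviate together (correlations of -0.487 to 0.567, never all above 0.1), although single pairs did, so the numbers were not taken to pair samples. With a replicate block, 3 members were called on chow, 5 between strains in 12-week eWAT and 57 on the control diet. With no counts in the files, depth limits cannot be given, and genes near the floor are the least certain.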
